A study of Homo sapiens with 2 samples.

Results

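The region described here lies on the short arm of human chromosome 12 (12p), in 2 flanks around the strongest contact signal of a reporter locus. Only the flank towards the telomere is distal to that signal. It was chosen by position in the deposited table, as all probes (windows of 50 kb) of chromosome 12 that end at or before 8750000, and all that lie from 18750001 to 21850000 (hg18). These are 237 of 61607 probes, 175 in the telomere-side flank and 62 in the centromere-side flank. Both flanks begin 5 Mb from position 13750000, the centre of the 500 kb stretch with the highest mean signal, and the centromere-side flank ends at 21850000, where the share of probes with reads drops. The centre and that edge were placed from the same 2 libraries, so the level and the detection of these probes are given as a description, with no test.

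The contacts come from 4C-seq of U2OS cells, a line derived from a human osteosarcoma, with the transgenes DRGFP, TRE-I-SceI and Tet-On. DRGFP reports repair of an I-SceI cut by homologous recombination, and the study asked which sequences lie near that site in the nucleus. The 2 libraries are independent experiments of 1 group, with no control and no treatment recorded, and the labels do not say whether the cells were 1 clone or whether I-SceI was induced. Replicate 1 held 944456 reads and replicate 2 held 454091. Values are reads per 1000000 reads of the library (RPM), so that a read is worth 1.06 RPM in replicate 1 and 2.20 RPM in replicate 2.

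The 4C method cuts and religates fixed chromatin, and then amplifies whatever was joined to a chosen bait by inverse PCR, with primers that point outwards from the bait. Contacts along the same chromosome generally become rarer with distance, and chromosomes tend to keep to their own territory. The outermost band of 12p holds genes of ion channels, immune receptors and metabolic enzymes, many of them closely packed, while the stretch towards the centromere has fewer and longer genes. Every contact below was read from the 2 primers on the DRGFP fragment, shown because they define the bait (5′ to 3′, all in lower case):
Csp6I-proximal: gacgttgtggctgttgtagttg
HindIII-proximal: cggcatcaaggtgaacttc
They are 22 and 19 bases long. The fragment between them is bounded by HindIII, the enzyme of the first cut, and Csp6I, that of the second. No hg18 sequence was used here, so the number of HindIII fragments in each probe is not known.

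The 237 probes held 2.72% of the reads of replicate 1 (95% Clopper-Pearson interval 2.69% to 2.75%) and 2.33% of those of replicate 2 (2.29% to 2.37%). The intervals cover counting error only, since copies made by PCR are not independent molecules. Reads were found at 160 probes (67.5%) in replicate 1 and at 165 (69.6%) in replicate 2, a mean of 68.6% ± 1.49 (SD, n = 2). On chromosomes other than 6, 12, 17 and Y, 6.63% ± 0.257 of the probes had reads. That share does not describe chromosomes 6 and 17. Over all 61607 probes of the table it was 8.34% ± 0.405. The 200 probes closer to the centre had reads at 96.8% ± 1.77 of positions, and the 2209 beyond 21850000 at 7.72% ± 0.672. Over the members, mean signal per probe was 115 and 98.3 RPM, against 3137 and 3294 closer to the centre and 5.12 and 6.25 beyond the edge.

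The members' reads were concentrated in few probes. In replicate 1, 13 probes held 50% of the members' reads, and in replicate 2, 17 probes did. The top 10 probes of replicate 1 held 43.0% of its reads on the members, and those of replicate 2 held 35.6%. The 2 lists of 10 had 1 probe in common. That probe, from 5350001 to 5400000, has no gene in the deposited table and carried 1772 and 960 RPM, the highest value of the telomere-side flank in replicate 1. The highest probe of the centromere-side flank in replicate 1 lay at GYS2, the liver glycogen synthase gene, with 1911 RPM. The highest member in replicate 2 lay at GALNT8, a gene of the GalNAc transferase family in the telomere-side flank, with 1103 RPM.

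**Figure D1:**
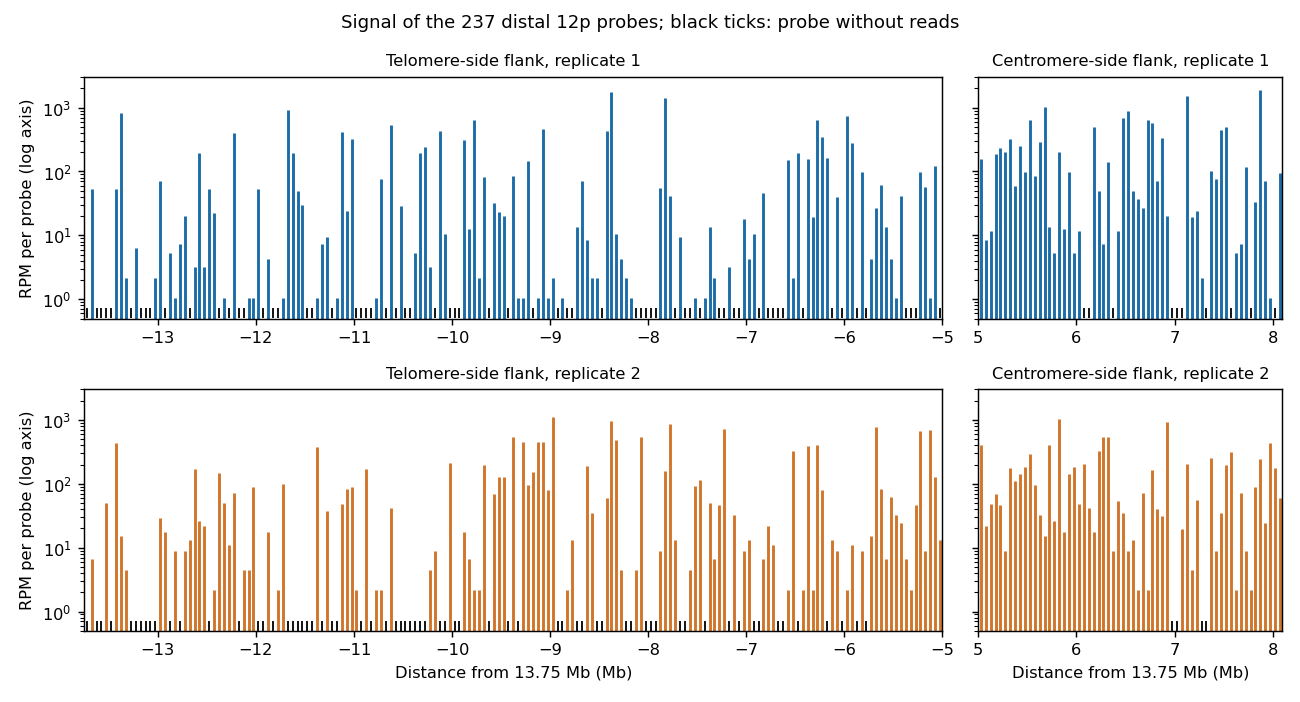
RPM per 50 kb probe on a log axis, against distance from the centre at 13750000 in Mb, with the telomere side as negative distances on the left, the centromere side on the right, replicate 1 above and replicate 2 below. Black ticks mark probes without reads, which are scattered over the telomere-side flank and number 10 and 4 of 62 in the centromere-side flank.

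At equal distance from the centre, 5 to 8.1 Mb, the telomere-side flank had fewer probes with reads than the centromere-side flank in both libraries. Each side holds 62 probes there, from 5650001 to 8750000 on the telomere side. Reads were found at 58.1% of the telomere-side probes and 83.9% of the centromere-side probes in replicate 1. The shares were 72.6% and 93.5% in replicate 2, and the difference, telomere side minus centromere side, averaged -23.4 percentage points ± 3.42 (SD, n = 2). Its spread between the libraries was thus smaller than its size, although an exact two-sided sign test over 2 libraries cannot go below p = 0.5 and none was made.

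Mean signal at equal distance was 78.2 RPM per probe on the telomere side and 208 on the centromere side in replicate 1. In replicate 2 it was 105.2 on the telomere side and 141 on the centromere side. The ratio, telomere side over centromere side, was thus 0.375 and 0.745, or -0.92 ± 0.70 on the log2 scale (SD, n = 2). Its direction was shared, while its 2 log2 values lay farther from each other than their mean lay from 0. As a ratio, the medians lay farther apart than the means. They were 2.12 RPM on the telomere side against 54.5 on the centromere side in replicate 1, and 8.81 against 50.7 in replicate 2. The ratio of medians averaged -3.61 ± 1.53 on the log2 scale (SD, n = 2). At least 10 reads in both libraries were found at 11 of the 62 telomere-side probes and at 33 of the 62 centromere-side probes.

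The gap was present in each of 3 distance steps. From 5 to 6 Mb, 80.0% ± 14.1 of the telomere-side probes had reads (SD, n = 2), while all 20 centromere-side probes had reads in both libraries. From 6 to 7 Mb, the shares were 62.5% ± 3.54 on the telomere side and 87.5% ± 10.6 on the centromere side. From 7 to 8.1 Mb, they were 54.5% ± 12.9 and 79.5% ± 9.64 in the same order. Mean signal in that last step was 70.0 RPM on the telomere side and 225 on the centromere side in replicate 1, but 120 and 101 in replicate 2, so that there the direction of the mean was not shared. The telomere-side flank is also richer in genes: 59 of its 62 probes at equal distance overlap a gene (95.2%), against 38 of 62 on the centromere side (61.3%). The part of gene content in the gap was not tested.

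Farther out the order of the 2 sides was the other way. From 8.1 Mb to the chromosome start, 113 telomere-side probes had reads at 63.7% and 54.9% of positions in replicates 1 and 2. The 113 probes at the same distances beyond the edge, from 21850001 to 27500000, had reads at 6.19% and 12.4%. Mean signal was 83.6 RPM on the telomere side and 1.65 beyond the edge in replicate 1, and 70.9 and 24.2 in replicate 2. The last value rests on few probes: the highest had 1398 RPM, 4 had at least 10 reads, and the median was 0. At least 10 reads in both libraries were found at 18 of the telomere-side probes and at 0 of those beyond the edge. The edge is part of how the members were chosen, so this contrast is a description.

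Within the telomere-side flank, detection went up and down along the arm. Detection was 75.0% ± 0 from 9 to 10 Mb, 45.0% ± 7.07 from 10 to 11 Mb, 75.0% ± 7.07 from 12 to 13 Mb and 36.7% ± 4.71 in the outermost 0.75 Mb, where 15 probes remain. The slope of log2(RPM + 1) on log2 distance over the 175 probes was -0.599 in replicate 1 and -1.56 in replicate 2 (-1.08 ± 0.681, SD, n = 2). With means of 500 kb blocks it was 0.266 in replicate 1 and -1.77 in replicate 2, so its sign in replicate 1 rested on the unit of the fit. Over the 62 centromere-side probes the slope was -3.63 and -2.72, across a narrower range of distances.

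**Figure D2:**
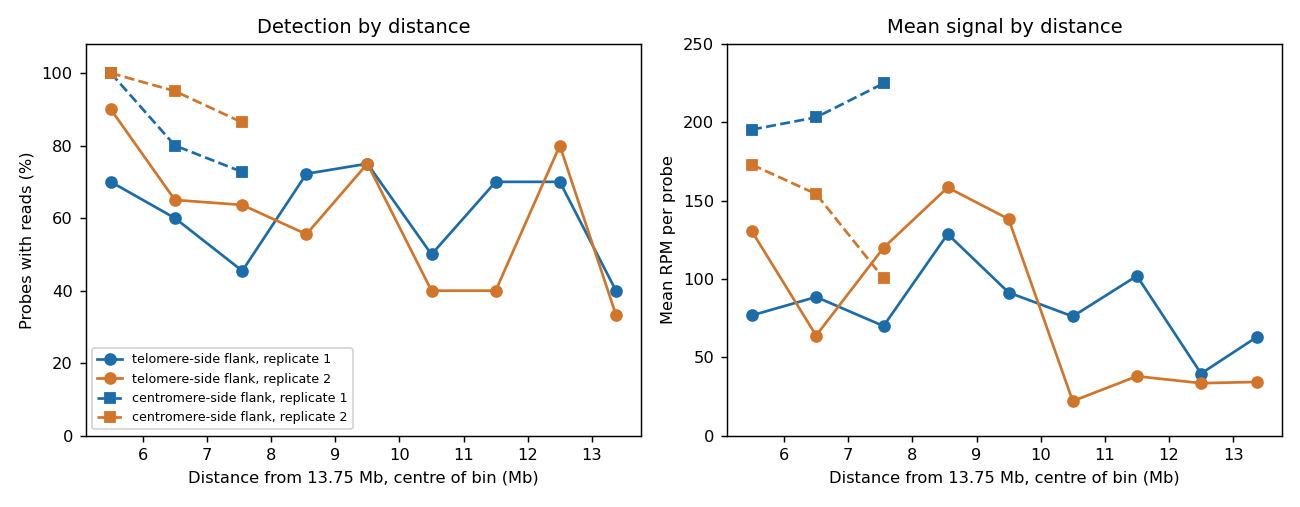
Share of probes with reads (left, %) and mean RPM per probe (right) in steps of distance from the centre at 13750000 (Mb), with circles and solid lines for the telomere-side flank, squares and dashed lines for the centromere-side flank, blue for replicate 1 and orange for replicate 2. Detection is lower on the telomere side in each of the 3 shared steps, and the mean is lower there except in replicate 2 from 7 to 8.1 Mb.

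Just inside the inner limit of the telomere-side flank, the MFAP5 probe had 0 and 13.2 RPM, and the FAM80B probe just outside it had 81.5 and 806. On the other side of the centre, PLCZ1, a sperm phospholipase gene, spans the limit, with 158 and 401 RPM at the probe inside and 565 and 689 at the probe outside. At the far edge, KCNJ8, a potassium channel gene, had 94.2 and 59.5 RPM, and the ABCC9 probe beyond it had 0 in both libraries.

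The gene names of the telomere-side flank with the highest signal in both libraries included a mitochondrial gene, several immune genes, a hormone gene and a channel gene. NDUFA9, which encodes a subunit of mitochondrial complex I, led with 465 and 456 RPM in replicates 1 and 2 (4650001 to 4700000). No difference between the libraries beyond counting error was called for it (adjusted p = 1, Fisher's exact test). In replicate 2 the neighbouring probe at AKAP3 held the same 207 reads as the NDUFA9 probe, the single pair of neighbouring members with equal counts of at least 10 reads. In replicate 1, by contrast, the AKAP3 probe had 1 read and the NDUFA9 probe 439. The probes of replicate 2 sum to 0.0852% more reads than its library. Whether the same reads were counted at both probes was not tested, so they may not be separate contacts.

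CD163L1, a gene of the scavenger receptor family, followed with 641 and 405 RPM at its higher probe (7450001 to 7500000). CD163, the haemoglobin scavenger receptor gene of macrophages, lies in the next probe (7500001 to 7550000) and had 346 and 79.3 RPM. ACSM4, an acyl-CoA synthetase gene, had 155 and 392 RPM (7350001 to 7400000). These 3 genes lie in 4 consecutive probes with reads in both libraries, from 7350001 to 7550000.

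Immune genes also lie closer to the inner limit of the flank. CLEC6A, a C-type lectin receptor gene for fungal sugars, had 97.4 and 676 RPM (8500001 to 8550000). C3AR1, the complement C3a receptor gene, had 61.4 and 83.7 RPM (8100001 to 8150000) within a run of 7 probes with reads in both libraries from 8000001 to 8350000, the longest of the flank.

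FGF23, the gene of a phosphate-regulating hormone, had 83.6 and 537 RPM (4350001 to 4400000). FBXL14, an F-box gene, had 407 and 70.5 RPM at its first probe (1500001 to 1550000) and 0 at the other in both libraries. TMEM16B, now ANO2, a calcium-activated chloride channel gene, had 1394 and 161 RPM at its highest probe (5900001 to 5950000). High signal was thus found near the chromosome start as well as near the inner limit of the flank.

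In the centromere-side flank, signal in both libraries was led by PLEKHA5, a pleckstrin homology domain gene, with 646 and 297 RPM at its highest probe (19250001 to 19300000). It lies in a run of 21 consecutive probes with reads in both libraries, from 18750001 to 19800000, the longest of either flank, which also holds PLCZ1 and AEBP2. AEBP2, a cofactor gene of the Polycomb complex PRC2, had 204 and 1042 RPM (19550001 to 19600000). GYS2 had 1911 and 247 RPM (21600001 to 21650000), close to the edge.

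The SLCO1 genes encode uptake transporters for organic anions such as bile salts, hormones and drugs. SLCO1B3 had 1535 and 205 RPM (20850001 to 20900000) and SLCO1B1 491 and 194 (21250001 to 21300000), and all 3 probes of each had reads in both libraries. SLCO1A2 had reads at 2 of 3 probes in replicate 1 and 3 of 3 in replicate 2, with at most 7.41 and 317 RPM. SLCO1C1, named at 1 probe, had 0 in both. Signal was thus uneven within the cluster, and SLCO1C1 adjoins the last PDE3A probe, which also had 0.

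The 5 gene names with at least 6 member probes show how the libraries sampled a gene. CACNA1C, the pore subunit gene of the L-type calcium channel, covers 14 probes of the telomere-side flank, of which 11 were reached in replicate 1 and 5 in replicate 2. From 2050001 to 2250000 its 4 probes had 923, 194, 49.8 and 29.6 RPM in replicate 1 and 0 in replicate 2. Its probe from 2350001 to 2400000 showed the reverse, at 1.06 and 381 RPM in replicates 1 and 2. Towards its far end both libraries had reads, with 420 and 48.4 RPM from 2600001 to 2650000.

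ERC1, a scaffold gene of vesicle docking, covers 11 probes, of which 8 were reached in replicate 1 and 9 in replicate 2, with 6 in common. Summed over the gene, signal was 309 and 449 RPM in replicates 1 and 2, closer than at most of its single probes. TMEM16B covers 9 probes, of which 4 had reads in each library and 2 in both. Its 3 probes from 5700001 to 5850000 had none in either library, which with the 3 from 550001 to 700000 at NINJ2 was the longest run of members without reads.

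In PLEKHA5 none of the 6 probes lacked reads in either library, with at least 85.8 RPM in replicate 1 and at least 15.4 in replicate 2. PDE3A, a cAMP phosphodiesterase gene, had reads at 6 of 7 probes in both libraries, the same 6. Its sums were 1684 and 1242 RPM, yet the probe from 20650001 to 20700000 had 20.1 and 932 RPM and that from 20450001 to 20500000 had 646 and 2.20. The 2 centromere-side genes were covered almost throughout, and the 3 telomere-side genes in part. These genes do not lie at equal distance from the centre. PLEKHA5 and PDE3A lie within 5.4 to 7.0 Mb of it, and TMEM16B within 7.8 to 8.2 Mb. CACNA1C and ERC1 lie within 11.1 to 12.8 Mb, so side and distance cannot be told apart here.

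**Figure D3:**
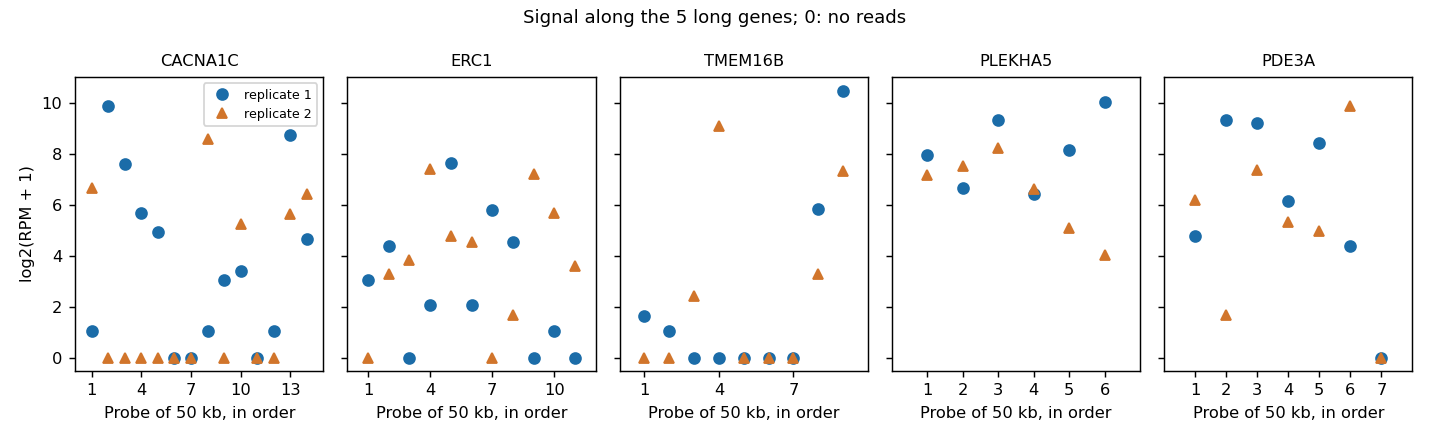
log2(RPM + 1) at each 50 kb probe of the 5 gene names with at least 6 member probes, in order along the chromosome, with blue circles for replicate 1 and orange triangles for replicate 2. CACNA1C, ERC1 and TMEM16B (telomere side) have many probes at 0 in 1 library or both, while PLEKHA5 has none and PDE3A (centromere side) has 1.

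Of 101 gene names on the members, 83 are kept here and the others are clone-based names. Among these 83, 61 were reached in replicate 1, 67 in replicate 2, 54 in both and 9 in neither. On chromosomes other than 6, 12, 17 and Y, 13.77% and 14.0% of 11283 gene names had reads. The groups below were compiled with earlier results of these data known, and their counts are to be read against those of the 83 names. For each name, the probe with the highest RPM in the lower of the 2 libraries was taken. Where probes tied, as where none had reads in both libraries, the first along the chromosome was taken, even if another had more signal. The median over the 83 names of the mean RPM at that probe was 38.7, and the groups' medians are given on that scale.

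Of 8 genes of ion channels and channel partners, 8 had reads in replicate 1 and 6 in replicate 2. Among the 83 names these counts were 61 and 67. KCNA1 was reached by 1 read in replicate 1 and had 0 in replicate 2, and CACNA1C had 14 probes in which to be reached. The median of the 8 genes was 40.7 RPM. TMEM16B led them and KCNA5, a voltage-gated potassium channel gene, had 13.76 and 0 RPM. SCNN1A, an epithelial sodium channel gene, had 13.76 and 50.7 RPM. WNK1, a kinase gene that regulates ion transport, had 69.9 and 28.6 RPM at its only probe with reads in both libraries.

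Among 5 genes of sugar metabolism, 3 had reads in both libraries and 2 had none. GYS2 led, and LDHB, a lactate dehydrogenase subunit gene, had 72.0 and 24.2 RPM at 1 probe and 1.06 and 440 at the other. ENO2, the neuronal enolase gene, had 45.5 and 6.61 RPM. TPI1, the triosephosphate isomerase gene, and C12orf5, now TIGAR, a p53-regulated gene of sugar metabolism, had 0 in both. Of the 3 transporter genes for glucose or neurotransmitters, SLC2A14 had 97.4 and 8.81 RPM, SLC6A13, a GABA transporter gene, had 0 and 50.7, and SLC2A3 had none in either.

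The 8 complement and innate immune genes had reads at 6 names in replicate 1 and 7 in replicate 2, with a median of 52.8 RPM. CLEC6A and C3AR1 are given above. C1S, a complement protease gene, had 0 and 11.01 RPM and its relative C1RL 152 and 2.20. APOBEC1, an RNA-editing gene, had none. Of 2 lymphocyte or tetraspanin surface genes, CD9 had 1.06 and 92.5 RPM at its higher probe and CD4, the T-helper co-receptor gene, 10.6 and 0.

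Of 3 genes of DNA repair and replication stress, PARP11, a mono-ADP-ribosyltransferase gene, had 311 and 17.6 RPM. RAD52, a recombination mediator gene, had 1.06 and 8.81 RPM, which is 1 and 4 reads. FOXM1, a transcription factor gene of cell division, had 0 and 170. DPPA3, a germ-line gene of the pluripotency cluster and the only one of that group named in the table here, had 730 and 2.20 RPM.

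Among 5 chromatin regulators, 4 were reached in replicate 1 and 3 in replicate 2, and their median of 3.79 RPM was below that of the 83 names. AEBP2 led, JARID1A, a histone demethylase gene, had 54.0 and 438 RPM at 1 probe and 829 and 15.4 at the next, and ZNF384, a zinc finger gene, had none. The 9 genes of growth signals and cell cycle had reads at 7 names in each library, with a median of 4.32 RPM. That low median rests on a tie at ADIPOR2. Its probe taken had 1.06 and 4.40 RPM, and its next probe, with the same lower value, had 1.06 and 88.1. FGF23 led them, CCND2, the cyclin D2 gene, had 20.1 and 128 RPM, and VWF, the von Willebrand factor gene, 41.3 and 850. WNT5B had 0 and 4.40.

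Of 6 genes in a group named for synaptic and vesicle scaffolds, which also holds other kinds of gene, 4 had reads in replicate 1 and 5 in replicate 2. PLEKHA5 led, TSPAN9, a tetraspanin gene, had 528 and 41.8 RPM, and VAMP1, a vesicle fusion gene, 0 and 46.2. NINJ2, a cell adhesion gene, was the only printed name with at least 2 probes and no reads in either library. In the centromere-side flank, all 4 genes of the last group had reads in replicate 2 and 3 did in replicate 1. GOLT1B, a Golgi transport gene, had 33.9 and 90.3 RPM and PYROXD1, an oxidoreductase gene, 0 and 2.20, which is 1 read.

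Probes that overlap a gene had reads less often than gene-free probes over all members, at 66.0% against 73.5% in replicate 1 and 67.6% against 77.6% in replicate 2. The difference, overlapping minus gene-free, averaged -8.75 percentage points ± 1.76 (SD, n = 2). It did not hold within the flanks, where the mean difference was -0.513 percentage points, and it turned to 2.88 within 1 Mb blocks that hold both kinds. The centromere-side flank, where detection was higher, holds 24 of the 49 gene-free members. Among telomere-side probes the difference was -7.33 and 1.33 percentage points in replicates 1 and 2, and among centromere-side probes 7.68 and -3.73.

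The libraries shared which members had reads more than how many. Reads were found in both libraries at 128 members, in replicate 1 alone at 32, in replicate 2 alone at 37 and in neither at 40. Of the members with reads in replicate 1, 80.0% had reads in replicate 2, against 48.1% of those without reads in replicate 1. In the telomere-side flank 77 of 175 probes had reads in both libraries, and in the centromere-side flank 51 of 62. Pearson's r of log2(RPM + 1) over the 237 members was 0.335 and Spearman's rho 0.355. Over the 128 members with reads in both libraries they were 0.0588 and 0.0594, while over the 200 probes closer to the centre they were 0.644 and 0.709. These are descriptions, since the points of a comparison are neighbours in the same 2 libraries.

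At least 100 reads in both libraries were found at 9 members, of 49 with as many in replicate 1 and 30 in replicate 2. At 11 members replicate 1 had at least 100 reads and replicate 2 at most 3, and at 10 members the reverse held. DPPA3 belongs to the first kind and GALNT8, with 2 and 501 reads, to the second. Of these 21 probes, 11 had 1 to 3 reads in the lower library and 10 had none.

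**Figure D4:**
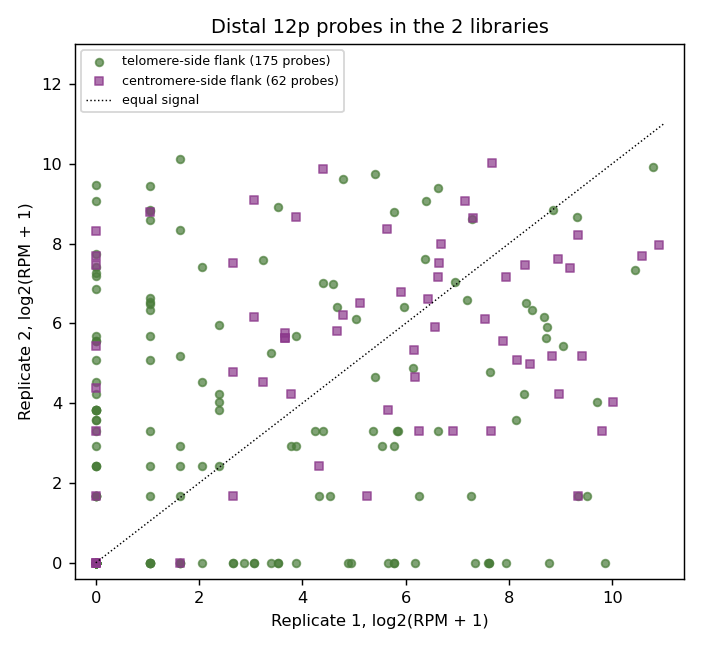
log2(RPM + 1) in replicate 1 (x axis) and replicate 2 (y axis) for the 175 telomere-side probes (green circles) and the 62 centromere-side probes (purple squares), with a dotted line of equal signal. Points spread widely around the line, and telomere-side probes make up 67 of the 77 at 0 in replicate 1 and 68 of the 72 at 0 in replicate 2.

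Fisher's exact test of a probe's reads against the rest of its library compares these 2 libraries and no conditions. It counts copies made by PCR as if they were independent molecules, so its p values cover counting error only and are too small as a measure of differences between experiments. Of the 8750 probes of the table with a read in either library, 49.2% were called at an adjusted p under 0.05 (Benjamini-Hochberg over all 8750). Of the members 197 could be tested, and 142 were called (72.1%). Among probes with reads in both libraries 69.1% of the table were called, against 101 of 128 members (78.9%). By flank, 93 of 138 telomere-side probes and 49 of 59 centromere-side probes were called. Replicate 1 was higher at 64 of the called members and replicate 2 at 78 (19.5% and 29.7% of the table). Among probes with reads, the members' median signal was 35.5 and 46.2 RPM, against 4.24 and 11.01 over the table. The part of depth in the members' share was not tested.

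By difference in RPM, the 3 gene names with the largest called excess in replicate 1 were GYS2, SLCO1B3 and TMEM16B at the probes given above (adjusted p = 3.41e-177, 2.49e-140 and 3.25e-136, Fisher's exact test). By the same difference, the 3 with the largest excess in replicate 2 were GALNT8, with 2.12 and 1103 RPM, PDE3A at its probe from 20650001 and AEBP2 at that from 19550001. Their adjusted p values were 1.79e-238, 1.19e-175 and 1.49e-90 by the same exact test. Members with at least 50 reads in each library that were not called included NDUFA9 and the gene-free probe from 19650001 to 19700000, with 98.5 and 141 RPM (adjusted p = 0.0659, Fisher's exact test), the last chosen after its values were seen.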

How the data were processed

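The table that the authors deposited has a signal column per library over windows of 50 kb, each with a gene name where one was assigned, per the file headers. Positions are those of hg18 (per the submitters' processing notes), and how reads were aligned, filtered and counted is not given in the sources. Per the labels' protocols, chromatin was fixed with 2% formaldehyde, cut with 400 U of HindIII and amplified for 30 and then 8 PCR cycles. The deposited signal values were whole multiples of 1 step per library and gave whole reads at 100% of probes within 0.1 read. Probes sum to 0.282% and 0.0852% more than the library. A total row, a mean row and the mitochondrial probe were left out. The members and gene lists were chosen with earlier results of these data known.

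Each library was summarised alone, and the SD is over both, which limits its precision. Intervals are Clopper-Pearson at 95%. Whole reads were compared between libraries with Fisher's exact test and Benjamini-Hochberg adjustment (scipy 1.17.1). The procedure was tried on simulated independent counts, which hold no PCR copies, so that trial cannot vouch for the calls in these libraries. A model across replicates could not be fitted with 1 library on each side. The shares of detection and flank ratios carry no test. Of the 83 names, 79 are current symbols and 3 single synonyms in RefSeq's gene table for GRCh38.p14, from which no positions were taken; a gene sharing its window with another can be missing. Genes were named by rule: the 10 highest names of the telomere-side flank and 5 of the centromere-side flank by the lower library, the highest and lowest of each list, names of 2 or more probes without reads, the 3 largest called differences in RPM each way, and those at the limits. Others were named after their values were seen. Alternatives covered the detection minimum, summary, centre, pseudocount, strata, library total and each library alone. 1 gene that the rule names is not reported here.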

Additional observations from a re-analysis of the deposited data

How the results depend on the processing

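Of the alternatives, those that left out 1 library gave 67.5% to 69.6% for the share of members with reads, -25.8 to -21.0 percentage points for the flank difference in that share, -1.41 to -0.42 for the log2 flank ratio, -1.56 to -0.599 for the telomere-side slope and -10.0 to -7.51 percentage points for the gene-overlap difference. No paired analysis was possible because both libraries belong to 1 group. The share of members with reads was 61.0% with at least 2 reads required, 44.3% with at least 10, and 66.2% when 1 to 3 reads were not counted where the other library had at least 100, a setting chosen after seeing the data. The flank difference kept its direction, at -31.5 percentage points with at least 10 reads and -19.6 with the centre at 13900000. So did the log2 flank ratio, at -3.61 for medians, -2.10 for means of log2(RPM + 1) and -0.69 with the centre at 13500000. The gene-overlap difference was -13.2 with at least 2 reads, -11.0 with at least 10, -0.513 within flanks and 2.88, reversed, within 1 Mb blocks. The agreement of the libraries was 0.355 by ranks, 0.274 with a pseudocount of 10, 0.0588 over probes with reads in both, 0.258 in the telomere-side flank alone and 0.263 in the centromere-side flank alone. The number of members called between libraries was 142 in the main setting and at most 146 otherwise. With only probes with reads in both libraries tested, it was 105 of 128 members. The main setting called 101 of those 128. The causes of these shifts were not tested. By counting error alone, a probe without reads allows up to 3 reads, or 3.18 RPM in replicate 1 and 6.61 in replicate 2. Low contacts were thus not detectable at this depth. That limit does not cover differences between experiments, since 10 members had no reads in 1 library and at least 100 in the other.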

Other observations

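Several runs of probes without reads in 1 library held high signal in the other library. In replicate 2 the longest run among the members covered 7 probes from 3150001 to 3500000, from TSPAN9, a tetraspanin gene, onwards, and replicate 1 had 181 and 231 reads at the last 2 of them. A run of 6 in replicate 2 lay within CACNA1C (2050001 to 2350000), where replicate 1 had 872 reads at the first probe. Another run of 6, over B4GALNT3, NINJ2 and the first WNK1 probe (450001 to 750000), was low in replicate 1 too, with at most 6 reads at a probe. In replicate 1 the longest run covered 5 TMEM16B probes from 5600001 to 5850000, and replicate 2 had 245 reads at the second of them. A run of 4 in replicate 1 held FKBP4, ITFG2, FOXM1 and TULP3 (2750001 to 2950000), where replicate 2 had 77 reads at FOXM1. These genes were chosen after their values were seen, and no test was made.

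Some probes of the gene-rich stretch of the telomere-side flank had nearly all of their signal in 1 library. NCAPD2, a condensin subunit gene (6500001 to 6550000), had 0 and 709 RPM in replicates 1 and 2. CLSTN3, a synaptic adhesion gene (7200001 to 7250000), had 2.12 and 321.5, and PEX5, the peroxisomal import receptor gene in the next probe, had 195 and 0. These too were chosen after their values were seen.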
